A study of Mus musculus with 18 samples.

Results

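The 10 genes described here encode the cytokines by which conventional helper T cells are classified: Ifng, Tnf, Il2, Il4, Il5, Il13, Il17a, Il17f, Il21 and Csf2. They were chosen by name from a list of helper T cell cytokines and not by a rule on their values, though with earlier results of these data known. All 10 were found among the 55487 gene IDs of the tables. The libraries are poly(A) RNA of mouse CD4+Foxp3+ regulatory T (Treg) cells, which restrain other immune cells, sorted without culture from peripheral blood, bone marrow, liver, lung, lymph node and spleen. Each organ has 3 libraries, 18 in all, and every animal was wild-type and untreated. The labels give no age, strain, sex or sorting gate, and leave out both the number of animals per library and whether the replicates are separate animals, so the p-values measure only the spread between these libraries. The series asks how Treg cells of the blood compare with those of tissues; the 10 cytokine genes were followed over all 6 sites.

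Helper T cells are grouped by what they secrete. Th1 cells make interferon gamma (Ifng), which activates macrophages, and tumour necrosis factor (Tnf), an inflammatory cytokine that many T cells and myeloid cells also make. Th2 cells make interleukins 4, 5 and 13, which act on B cells, eosinophils and epithelia, and Th17 cells make interleukins 17A and 17F, which recruit neutrophils. Interleukin 21 (Il21) is a product of follicular helper T cells, interleukin 2 (Il2) is the T cell growth factor, and Csf2 encodes the myeloid growth factor GM-CSF. Treg cells depend on interleukin 2 made by other T cells, and Foxp3 is known to repress several of these genes, Il2 among them.

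Most of these genes are induced through NFAT, a factor activated by the T cell receptor, whose binding core reads GGAAA. The 250 bases upstream of the annotated start are printed for Ifng, Tnf, Il2, Il4 and Il17a. These members had the largest F in the test over the 6 organs given below. GGAAA and its reverse complement TTTCC are in capitals. The sequences are from RefSeq (mouse build GRCm38.p6), 5′ to 3′ on the gene's own strand. The windows are chr10:118440796-118441045 (plus strand) for Ifng, chr17:35202008-35202257 (minus) for Tnf, chr3:37125955-37126204 (minus) for Il2, chr11:53618666-53618915 (minus, 1 of 2 annotated starts) for Il4 and chr1:20730655-20730904 (plus) for Il17a.
Ifng: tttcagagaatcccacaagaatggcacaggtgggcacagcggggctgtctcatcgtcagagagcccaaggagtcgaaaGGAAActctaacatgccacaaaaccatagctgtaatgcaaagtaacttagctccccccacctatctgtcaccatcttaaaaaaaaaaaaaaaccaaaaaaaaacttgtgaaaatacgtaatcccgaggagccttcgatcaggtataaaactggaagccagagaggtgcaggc
Tnf: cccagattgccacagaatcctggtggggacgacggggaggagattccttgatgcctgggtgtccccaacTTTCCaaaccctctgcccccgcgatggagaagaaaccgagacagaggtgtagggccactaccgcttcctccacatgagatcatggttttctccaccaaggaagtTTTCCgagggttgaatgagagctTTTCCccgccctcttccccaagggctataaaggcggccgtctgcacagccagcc
Il2: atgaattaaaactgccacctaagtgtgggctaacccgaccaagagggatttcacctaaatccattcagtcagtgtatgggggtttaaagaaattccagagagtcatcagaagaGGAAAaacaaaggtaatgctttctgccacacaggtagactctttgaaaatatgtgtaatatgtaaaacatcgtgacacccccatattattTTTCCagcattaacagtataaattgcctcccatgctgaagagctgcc
Il4: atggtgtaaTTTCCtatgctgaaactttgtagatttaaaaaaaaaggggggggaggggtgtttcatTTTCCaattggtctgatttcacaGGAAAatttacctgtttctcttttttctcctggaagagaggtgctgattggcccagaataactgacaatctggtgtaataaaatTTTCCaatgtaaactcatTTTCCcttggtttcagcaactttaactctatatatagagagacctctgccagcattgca
Il17a: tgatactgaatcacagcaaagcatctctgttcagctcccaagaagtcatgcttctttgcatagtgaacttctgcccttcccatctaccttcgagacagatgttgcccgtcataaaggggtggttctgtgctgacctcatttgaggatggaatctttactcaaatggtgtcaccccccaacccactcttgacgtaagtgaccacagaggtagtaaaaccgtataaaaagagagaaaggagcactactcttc
Searched on both strands, GGAAA occurred in the upstream windows of 9 of the 10 genes, against 55.6% of all 32851 windows of this length in the table. Il4 had 5 matches, Il13 had 4, Tnf and Il21 had 3 each and Ifng had 1, while the Il17a window held none. Windows with 3 or more matches numbered 4 of 10 here and 6.39% of all windows. TATAAA, the core of the TATA box, lay in 6 of the 10 windows, against 12.4% of all, with its first base at position -30 from the start in Ifng, -29 in Tnf and -31 in Il2. TGANTCA, an AP-1 motif, occurred in the window of Il17a alone among the members and in 6.75% of all windows. A match is a description of letters, and the absence of a match says only that these letters are not in this window.

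The mRNAs share a second sequence feature. Cytokine mRNAs are short-lived because proteins such as tristetraprolin (Zfp36) bind repeats of AUUUA in them. In the longest coding transcript of each gene (GENCODE M21), the 10 members held a median of 4.92 ATTTA per kb, against a median of 0.822 over 21901 coding genes. Csf2 had 12.5 per kb and Il2 6.12, and Il13 was the lowest of the members at 2.49. The overlapping repeat ATTTATTTA occurred in 3 of the 10 (Csf2, Tnf and Il2) and in 6.47% of coding genes. The 30 bases with the most repeats are shown for these 3 genes and Ifng, with ATTTA in capitals; they begin at base 717 of 800 in Csf2, 1314 of 1639 in Tnf, 598 of 1144 in Il2 and 648 of 1208 in Ifng.
Csf2: taaatATTTATTTATTTATTTATTTAtttt
Tnf: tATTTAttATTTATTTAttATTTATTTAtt
Il2: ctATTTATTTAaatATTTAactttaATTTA
Ifng: cctATTTAttaatATTTAaaactATTTAta

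The values are TPM, which are length-normalised shares of a library's transcripts, so levels of different genes can be set side by side. The number of reads behind a value was read from the steps between low TPM values. For a 1 kb transcript, a single read equalled 0.377 TPM on average in the liver libraries and 0.233 in lung, the shallowest groups, against 0.0826 in blood, the deepest. Of the 47 values between 0 and 20 reads of the 5 members with a single annotated transcript, 46 came within 0.2 of a whole read. The tested Treg markers Foxp3, Cd4, Cd3e, Il2ra, Ctla4 and Ikzf2 averaged at least 1 TPM in every organ, with Foxp3 from 88.6 ± 3.39 TPM in blood to 239 ± 2.14 in lymph node (SD, n = 3). The libraries also held RNA of other cells: 12 neutrophil, monocyte and macrophage genes summed to between 25797 and 26778 TPM in the blood libraries and 37349 to 37556 in bone marrow, against 55.8 to 91.0 in lymph node. The 5 erythroid genes were highest in liver, at 10932 to 11969 TPM in sum, beside the members highest there, and their part in those results was not tested. The geometric mean of 16 T cell genes ranged from 187 TPM in blood to 439 in lymph node, with 381 in liver.

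All 10 genes reached a mean of 1 TPM in at least 1 organ and entered the test. In limma's F test over the 6 organs, 7 of the 10 were called at an adjusted p under 0.05, against 68% of the 16694 genes tested, so the share of members called is near that of all genes. Ifng, Tnf, Il2, Il17a, Il4, Il21 and Il13 were called; Il5, Il17f and Csf2 were not. Over the 15 pairs of organs, 60 of the 150 tests of the members were called, against 33.8% of all genes' tests. Of those 60 pair calls, 39 were kept under every alternative setting in which the gene was tested and without any single library: 10 of 12 for Ifng, 10 of 11 for Il2, 8 of 8 for Il17a, 6 of 10 for Tnf, 3 of 7 for Il4, 1 of 6 for Il21, 1 of 5 for Il13 and 0 of 1 for Il5. Liver against the other sites gave 4 members called against bone marrow (34.5% of all genes), 4 against spleen (31.3%), 5 against lymph node (31.1%), 4 against lung (34.9%) and 7 against blood (39.4%). Lung against the remaining sites gave 5 for bone marrow (43.5% of all genes), 4 for spleen (40.8%), 6 for lymph node (42.3%) and 4 for blood (43.7%). Blood gave 2 against bone marrow (31.8%), 3 against spleen (35.4%) and 4 against lymph node (37.4%). Bone marrow gave 3 against spleen (24.1%) and 3 against lymph node (22.5%), and spleen and lymph node gave 2 (14.3%). The mean was highest in liver for 6 of the 10 genes, in spleen for 3 and in lung for 1, a count not made over all genes. Of those 6, only Ifng and Tnf were called above each other organ. In limma, liver was not called apart from spleen for Il2 (adjusted p = 0.909) or from lymph node for Il13 (0.751). Nor was it called apart from lung for Il5 (0.838) or Il17a (0.178). In bulk RNA, a larger share of cells that make a cytokine and more RNA per cell cannot be told apart.

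**Figure D1:**
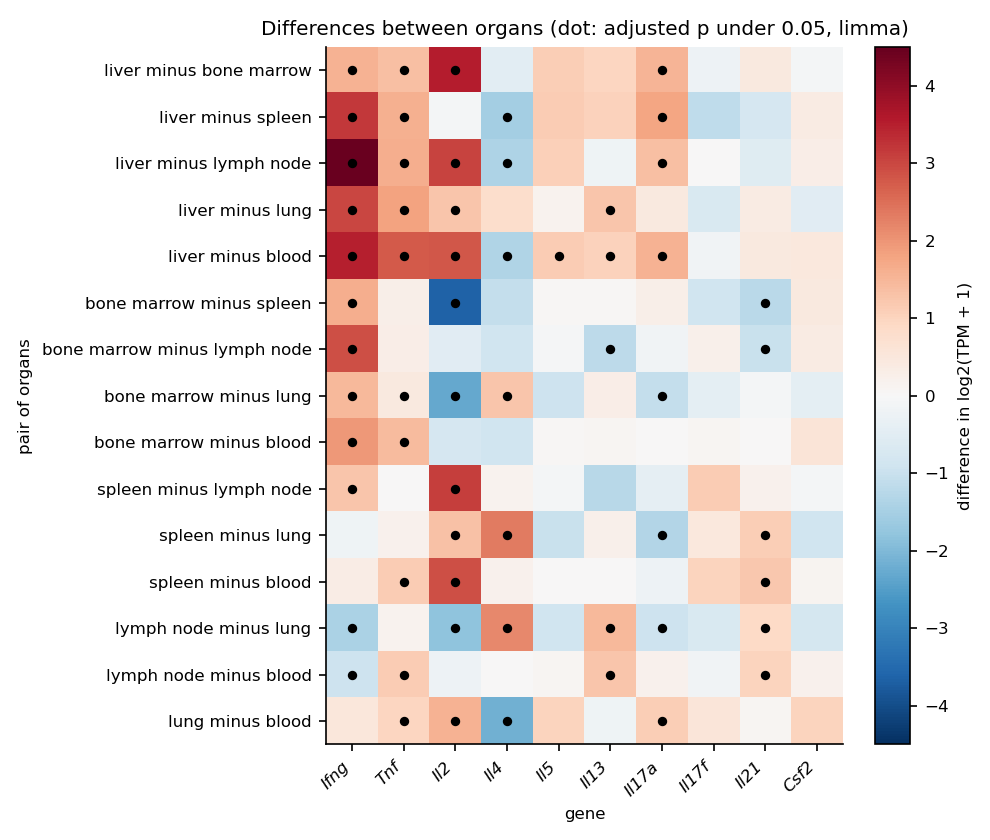
Differences in log2(TPM + 1) between organs for the 10 cytokine genes (columns) in the 15 pairs of organs (rows); red means higher in the first organ named, and a black dot marks an adjusted p under 0.05 in limma. The dots number 60 of 150, and Ifng and Tnf are red in all 5 pairs that begin with liver.

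Ifng, the Th1 cytokine, was highest in liver. The liver libraries had 81.7, 81.9 and 68.0 TPM and the bone marrow libraries 27.5, 24.2 and 24.1. Lung had 5.54, 15.5 and 7.27 TPM and spleen 10.3, 7.27 and 5.53. The blood libraries had 3.85, 8.57 and 5.81 and the lymph node libraries 2.78, 3.07 and 1.90. The liver libraries did not overlap any other library, the bone marrow libraries lay between liver and all others, and spleen, lung and blood overlapped one another.

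The differences between organs in Ifng passed the F test (limma, adjusted p = 5.81e-08). On the log2(TPM + 1) scale, liver was above bone marrow by 1.57 (SE 0.31, adjusted p = 0.00103), above lung by 3.02 (adjusted p = 2.06e-06), above spleen by 3.20 (1.39e-06), above blood by 3.52 (1.69e-07) and above lymph node by 4.46 (3.53e-08). Bone marrow was above lung, spleen, blood and lymph node by 1.45 to 2.89, with adjusted p from 2.77e-06 to 0.00138. Spleen, lung and blood did not differ from each other beyond their spread (adjusted p = 0.699 for spleen and lung, 0.487 for spleen and blood, 0.218 for lung and blood). Lymph node was below lung by 1.44 (adjusted p = 0.00146). Its call against spleen, a difference of 1.26, was lost without spleen replicate 1 (0.0625) or lymph node replicate 3 (0.063). Its call against blood, a difference of -0.94 with an adjusted p of 0.0257, was lost with quantile normalisation (0.0856) and without lymph node replicate 3 (0.103), blood replicate 2 (0.13) or blood replicate 3 (0.0613).

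Natural killer cells, CD8+ T cells and natural killer T cells also make interferon gamma. The 10 markers of cytotoxic and natural killer cells summed to 114 to 156 TPM in the liver libraries, 102 to 115 in bone marrow, 127 to 141 in spleen, 97.6 to 108 in lymph node, 239 to 274 in lung and 661 to 720 in blood. Of the markers, 7 of 10 averaged at least 1 TPM in liver and 10 of 10 in blood. The natural killer receptor Klrd1 was listed at 0 in all 3 liver libraries, Ncr1 had 1.67, 0 and 0 TPM there and the transcription factor Eomes 0, 0.63 and 0. Cd8a had 5.19, 2.46 and 1.78 TPM in liver, Cd8b1 6.84, 6.67 and 9.03 and Klrb1c 2.97, 1.24 and 0. Prf1 had 2.17, 1.21 and 5.79 TPM there and Gzma 5.24, 5.77 and 1.12. Gzmb (granzyme B) averaged 51.6 ± 7.55 TPM in liver, 141 ± 15.5 in lung and 6.10 ± 2.30 in spleen (SD, n = 3). Nkg7 averaged 66.9 ± 21.9 TPM in liver, 41.4 ± 2.62 in spleen and 24.7 ± 3.69 in lymph node. Its libraries had 84.1, 93.4 and 89.9 TPM in blood and 58.1, 61.6 and 57.5 in bone marrow. In blood Ncr1 averaged 49.4 ± 5.93 TPM. The part of such cells in the Ifng levels was not tested. Zbtb16, the transcription factor of natural killer T cells, had 0, 0 and 0.07 TPM in liver; this marker was added after the values had been seen. Gm49751, a transcript annotated over Ifng on the same strand, ranged from 0 to 17.1 TPM, so reads of the overlap may be split between both.

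Tnf also had its highest level in liver. The liver libraries had 74.8, 78.6 and 83.7 TPM. Bone marrow had 31.7, 29.9 and 28.8, spleen 27.6, 25.0 and 23.1, lymph node 27.0, 25.4 and 21.7, lung 25.8, 21.9 and 18.4, and blood 11.2, 10.4 and 10.6. No liver library overlapped another organ, the 4 other solid sites lay close together, and all 3 blood libraries were below the other 15.

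In the F test Tnf had an adjusted p of 7.67e-10 (limma). Liver was above bone marrow by 1.36 on the log2(TPM + 1) scale (SE 0.12, adjusted p = 3.76e-07), above spleen by 1.61 (8.49e-08), above lymph node by 1.64 (7.78e-08), above lung by 1.81 (1.93e-08) and above blood by 2.77 (4.7e-11), and these calls were kept under every alternative. Among bone marrow, spleen, lymph node and lung, only the pair of bone marrow and lung passed (0.45, adjusted p = 0.00796), a call lost with quantile normalisation (0.20, adjusted p = 0.211).

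Blood was below all 5 organs in Tnf TPM, but most of that difference moved with the scale. Spleen was above blood by 1.16 (adjusted p = 1.55e-06), lymph node by 1.13 (1.95e-06), lung by 0.96 (8.83e-06) and bone marrow by 1.41 (2.79e-07). When each library was divided by its 16 T cell genes, the spleen difference became 0.20 (adjusted p = 0.179), the lung difference 0.26 (0.0844) and the lymph node difference -0.03 (0.854), while bone marrow and liver stayed above blood. That scaling moved the median of all genes by more than 0.1 in most pairs, for example from 0.15 to -0.83 for lymph node minus blood. Myeloid cells make Tnf as well. The 12 myeloid genes summed to 209 to 456 TPM in liver, 37349 to 37556 in bone marrow and 602 to 733 in spleen. Their sums were 55.8 to 91.0 TPM in lymph node, 1759 to 1782 in lung and 25797 to 26778 in blood. The part of other cells in the Tnf levels was not tested.

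**Figure D2:**
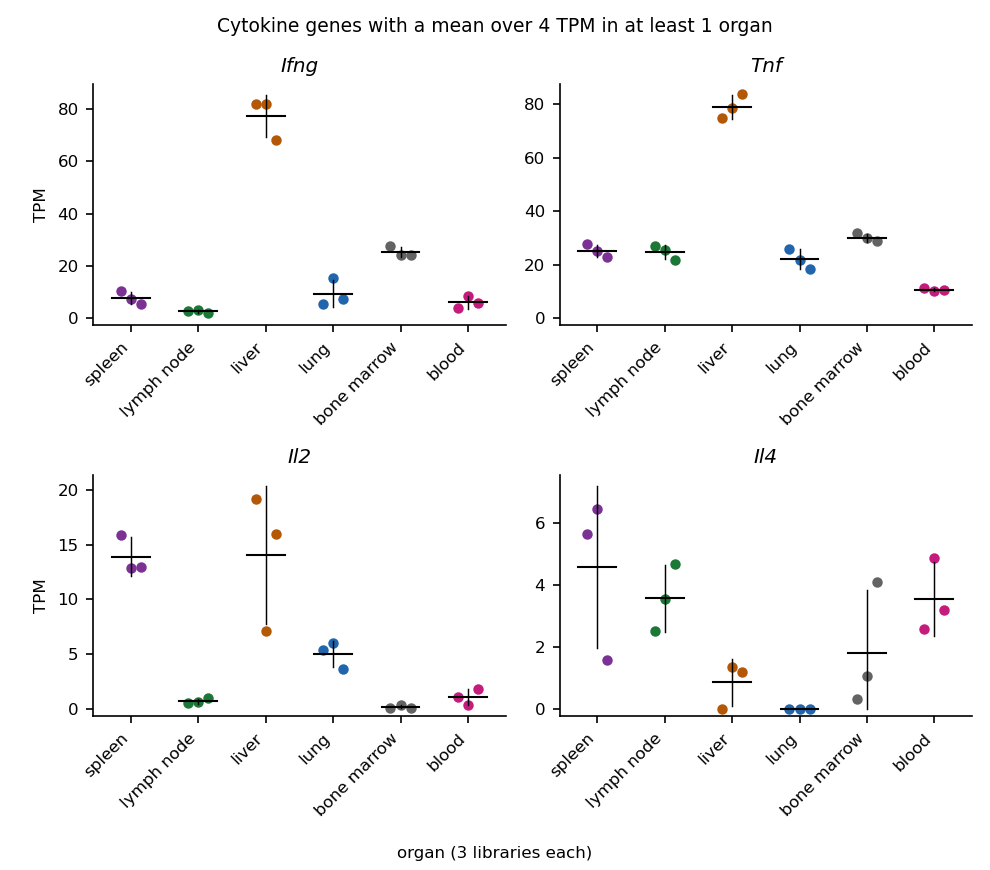
TPM of Ifng, Tnf, Il2 and Il4 in each library by organ; points are the 3 libraries, the horizontal bar is their mean and the vertical bar 1 SD to each side, stopped at 0. Ifng and Tnf lie highest in liver, Il2 lies highest in spleen and liver, and Il4 is at 0 in the 3 lung libraries.

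Il2, the growth factor gene, followed another order. The spleen libraries had 15.9, 12.8 and 13.0 TPM and the liver libraries 19.2, 7.08 and 16.0. Lung had 5.43, 5.99 and 3.68. Blood had 1.12, 0.35 and 1.85 TPM, lymph node 0.56, 0.62 and 0.96, and bone marrow 0.13, 0.37 and 0.13. Spleen, liver and lung did not overlap the other 3 sites, and the values there stood for 88, 76 and 79 reads in spleen, 51, 15 and 40 in liver and 22, 24 and 14 in lung. The bone marrow values stood for 1, 3 and 1 reads.

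The F test gave Il2 an adjusted p of 1.09e-07 (limma). Spleen and liver overlapped and did not differ beyond their spread (liver minus spleen -0.08, SE 0.33, adjusted p = 0.909). Spleen was above lung by 1.32 (adjusted p = 0.00432), blood by 2.88 (3.43e-06), lymph node by 3.12 (1.1e-05) and bone marrow by 3.62 (4.76e-07). Lung was above blood by 1.56 (0.00106), and the values of lymph node, bone marrow and blood did not differ beyond their spread (adjusted p from 0.105 to 0.631). The call of liver above lung, a difference of 1.24 with an adjusted p of 0.00821, was lost with a pseudocount of 0.1 (0.0528) and with library weights (0.18). Spleen and lymph node, both secondary lymphoid organs, thus stood 3.12 apart in Il2, and their Tnf libraries overlapped (difference 0.03, adjusted p = 0.952).

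The Th2 genes Il4, Il13 and Il5 lie in 1 stretch of chromosome 11, Il4 and Il13 12.7 kb apart and Il13 and Il5 86.1 kb apart with Rad50 between them. Their levels did not follow one another over the organs. Il4, which drives Th2 differentiation and antibody class switching, had 5.66, 6.48 and 1.59 TPM in spleen, 2.52, 3.54 and 4.68 in lymph node and 2.57, 4.88 and 3.20 in blood. Bone marrow had 0.31, 1.05 and 4.11 and liver 0, 1.37 and 1.20, and Il4 was listed at 0 in all 3 lung libraries. Spleen, lymph node and blood overlapped and lay above lung without overlap. These levels rest on few reads: about 2.46 estimated reads over the 3 liver libraries, against 32.5 in spleen, 44.97 in lymph node and 48.7 in blood, and 1 read was worth 0.99 TPM in liver and 0.61 in lung.

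Il4 passed the F test (limma, adjusted p = 0.00263). Lung was called below spleen (adjusted p = 0.00124), lymph node (0.00208) and blood (0.00204), and these 3 calls were kept under every alternative in which the gene was tested; no fold is given against a group listed at 0. The calls of liver below spleen (0.0256), lymph node (0.0447) and blood (0.0382) were each lost without liver replicate 1 (0.102, 0.162 and 0.152) and with library weights (0.303, 0.287 and 0.282). The call against spleen was also lost without spleen replicate 1 (0.0913) or 2 (0.105), and the call against blood without blood replicate 1 (0.0508), 2 (0.13) or 3 (0.0746), with quantile normalisation (0.138) or with no filter (0.0605). The calls of liver below lymph node and of bone marrow above lung (0.0494) were lost under 15 and 16 of 25 alternatives, with adjusted p up to 0.287 and 0.261. Basophils and mast cells also make interleukin 4. Their 8 markers summed to 172 to 190 TPM in bone marrow, 35.3 to 49.7 in blood and 4.5 to 9.87 in spleen. The sums were 0.92 to 2.81 TPM in lung, 0 to 2.63 in liver and 0.18 to 0.58 in lymph node. Of the 8, 6 averaged at least 1 TPM in bone marrow and in blood, 3 in spleen and 0 in lymph node, liver or lung. The part of such cells in the Il4 values was not tested.

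Il13, which acts on epithelia and macrophages, had 1.39, 1.83 and 2.11 TPM in lymph node, or 16, 22 and 21 reads. The liver libraries had 2.81, 2.57 and 0 TPM, or 8, 6 and 0 reads. Spleen had 0, 0 and 0.62 TPM, bone marrow 0.24, 0 and 0.48 and blood 0.16, 0.33 and 0, and lung was listed at 0 throughout. Lymph node thus lay above spleen, bone marrow, blood and lung without overlap, and the liver libraries were split.

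Il13 passed the F test with an adjusted p of 0.0132 (limma). The call of lymph node above lung (adjusted p = 0.00737) was kept under every alternative in which the gene was tested. Against spleen, the difference of lymph node did not pass (spleen minus lymph node -1.23, adjusted p = 0.0504). Lymph node was also above blood by 1.26 (0.0204), a call lost with T cell scaling (0.056), a pseudocount of 0.1 (0.051), or without blood replicate 1 (0.0505), blood replicate 3 (0.0697), lymph node replicate 2 (0.0551) or lymph node replicate 3 (0.0677). Lymph node above bone marrow (1.17, 0.045) and liver above blood (1.05, 0.048) were at the threshold and were lost under 19 and 22 of 25 alternatives. Liver above lung (0.0227) was lost without liver replicate 1 (0.097) or liver replicate 2 (0.0903) and with library weights (0.16).

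Il5, the eosinophil growth factor gene, was read in 2 of 3 liver and 2 of 3 lung libraries. Liver had 2.10, 0 and 2.51 TPM, or 8, 0 and 9 reads, and lung 0, 1.57 and 2.03 TPM, or 0, 9 and 11 reads. Lymph node had 0.19, 0 and 0, bone marrow 0, 0 and 0.09, and spleen and blood were listed at 0. The F test did not pass (limma, adjusted p = 0.0529), and it passed without liver replicate 2 (0.00163) or lung replicate 1 (0.00637), the libraries at 0, and after T cell scaling (0.0459) or quantile normalisation (0.0255). The 6 eosinophil markers summed to 223 to 243 TPM in lung, where 4 of 6 averaged at least 1 TPM. Ear2 had 164, 169 and 162 TPM there and Ear1 46.5, 57.4 and 49.0. The granule genes Epx and Prg2 had 0, 0 and 0 TPM and 0, 0 and 1.18 in lung. The sums were 8.38 to 21.2 TPM in liver, with 3 of 6, 273 to 295 in bone marrow and 160 to 166 in blood. In spleen they were 6.39 to 15.2 and in lymph node 2.18 to 2.86. The part of eosinophils in Il5 was not tested. Liver above blood was the 1 pair called (0.043), and 17 of 25 alternatives ended that call.

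Il17a was the Th17 gene with a steady difference. The liver libraries had 3.27, 2.66 and 1.55 TPM, or 9, 6 and 4 reads, and the lung libraries 1.20, 1.21 and 2.30, or 5, 5 and 9 reads. Lymph node had 0.54, 0.17 and 0.31 TPM, bone marrow 0.37, 0.24 and 0, blood 0.17, 0.25 and 0.09, and spleen was listed at 0 in all 3 libraries. Liver and lung overlapped each other and no other organ.

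Il17a passed the F test (limma, adjusted p = 3.08e-05). Liver was above lymph node by 1.36 (SE 0.24, adjusted p = 0.000467), bone marrow by 1.52 (0.000138) and blood by 1.55 (7.49e-05). Lung was above the same 3 sites by 0.92 (0.00542), 1.08 (0.00169) and 1.11 (0.00128). Both were called above spleen (4.06e-05 for liver and 0.000317 for lung), where the gene was listed at 0. All 8 of these calls were kept under every alternative in which the gene was tested, and liver and lung did not differ beyond their spread (0.44, adjusted p = 0.178). Gamma delta T cells are another source of interleukin 17A: their 7 markers summed to 14.9 to 17.4 TPM in liver and 15.6 to 29.4 in lung, and to 67.0 to 70.1 in blood, where Blk, which B cells also express, averaged 29.5 ± 0.725 (SD, n = 3). Of the 7, 5 in liver and 6 in lung and blood averaged at least 1 TPM, and the part of such cells in the Il17a levels was not tested.

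Il17f lies 42.7 kb from Il17a on chromosome 1 and encodes its closest relative. It had 0, 2.11 and 2.49 TPM in spleen, 0, 3.15 and 0 in lung, 0, 0.63 and 0 in bone marrow and 0.25, 0 and 0.09 in blood, and was listed at 0 in lymph node and liver. Libraries at 0 and libraries over 2 TPM stood in the same organ, and the F test did not pass (limma, adjusted p = 0.249); without spleen replicate 1 it did (0.0373). In liver, where the mean of Il17a was highest, Il17f was at 0, and in spleen, where Il17a was at 0, 2 of 3 libraries had Il17f. That contrast between both genes was not tested.

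Il21, the follicular helper cytokine that supports germinal centre B cells, had its highest means in spleen and lymph node. Spleen had 0.23, 2.18 and 2.17 TPM, lymph node 1.07, 1.24 and 0.74, liver 0, 0.44 and 0.77 and lung 0, 0.22 and 0. Bone marrow and blood were listed at 0 in all 6 libraries. The F test passed (limma, adjusted p = 0.00761). Liver did not differ beyond the spread from spleen (adjusted p = 0.0829) or lymph node (0.208). Spleen was called above blood (0.00691) under every alternative in which the gene was tested, while the calls of spleen above bone marrow (0.0104) and lung (0.0105) were lost without spleen replicate 2 (0.0566 and 0.0559) or spleen replicate 3 (0.0561 and 0.055). The 3 calls of lymph node above bone marrow (0.0316), blood (0.0204) and lung (0.0309) were each lost without lymph node replicate 1 (0.0878, 0.0569 and 0.077) or lymph node replicate 2 (0.109, 0.0711 and 0.0956). The first was also lost without any 1 bone marrow library (0.0778 to 0.0785) and with quantile normalisation (0.0526), the second without any 1 blood library (0.0504), and the third without lung replicate 1 (0.0736) or 3 (0.0729), after T cell scaling (0.0701) and with quantile normalisation (0.108). Il2, its neighbour 96.8 kb away on chromosome 3, was 13.9 ± 1.74 TPM in spleen and 0.713 ± 0.216 in lymph node (SD, n = 3), whereas the Il21 libraries of both organs overlapped (difference 0.21, adjusted p = 0.795). Gm12534, antisense to Il21, reached at most 1.91 TPM, and without a stated strand setting its reads cannot be told apart from those of Il21 where both overlap.

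Csf2 (GM-CSF) stood for at most 5 reads in any library. Lung had 0, 1.60 and 2.10 TPM, liver 1.78, 0 and 0, bone marrow 0, 1.00 and 0.62, lymph node 0.30, 0 and 0.17 and spleen 0, 0.27 and 0, and blood was listed at 0. No organ lay apart from the others, the F test did not pass (limma, adjusted p = 0.305) and no pair was called; without lung replicate 1, the F test passed (0.042). A single read of this 800-base transcript was worth about 0.66 TPM in liver, 0.41 in lung and 0.14 in blood. The lung libraries stood for 0, 4 and 5 reads, and differences of so few reads can be missed with 3 libraries per organ.

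**Figure D3:**
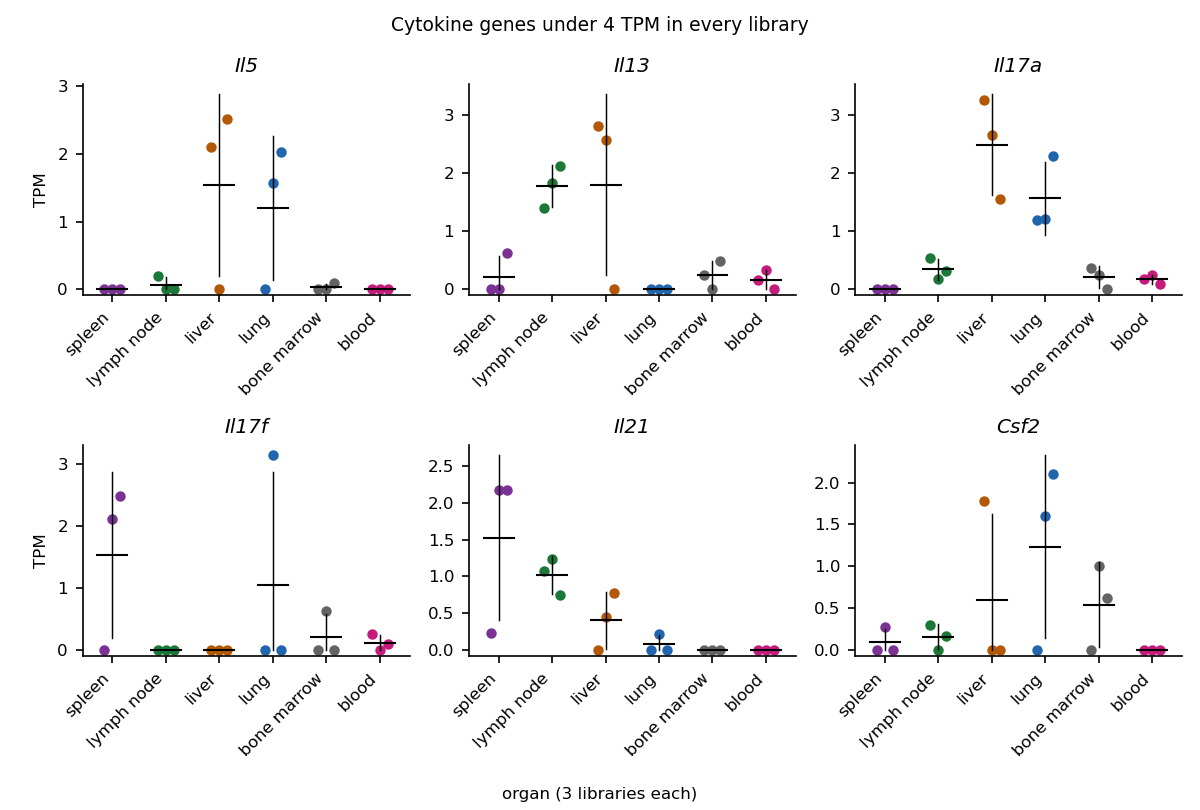
TPM of Il5, Il13, Il17a, Il17f, Il21 and Csf2 in each library by organ; points are the 3 libraries, the horizontal bar is their mean and the vertical bar 1 SD to each side, stopped at 0. Il17a lies highest in liver and lung with all 3 libraries above 0, whereas Il5, Il13, Il17f and Csf2 mix libraries at 0 with libraries above 1.5 TPM in at least 1 organ.

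Genes next to the members on the chromosome followed other orders. Lta, which encodes lymphotoxin alpha and ends 1.16 kb upstream of the start of Tnf on chromosome 17, had 74.1, 75.5 and 74.3 TPM in lymph node and 43.4, 47.2 and 60.9 in spleen, but 23.8, 17.0 and 15.8 in liver and 4.90, 3.57 and 3.76 in lung. Ltb, the partner of Lta on the cell surface, 3.06 kb from Tnf on its other side, averaged 1116 ± 46.7 TPM in spleen, 1062 ± 10.6 in lymph node, 497 ± 22.4 in liver and 288 ± 7.72 in lung (SD, n = 3). In liver, where Tnf was highest, neither neighbour was. Both passed the F test (limma, adjusted p = 1.34e-10 for Lta and 1.43e-14 for Ltb). Il3, 15.6 kb from Csf2, and Il22, 231 kb from Ifng, were listed at 0 in all 18 libraries.

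**Figure D4:**
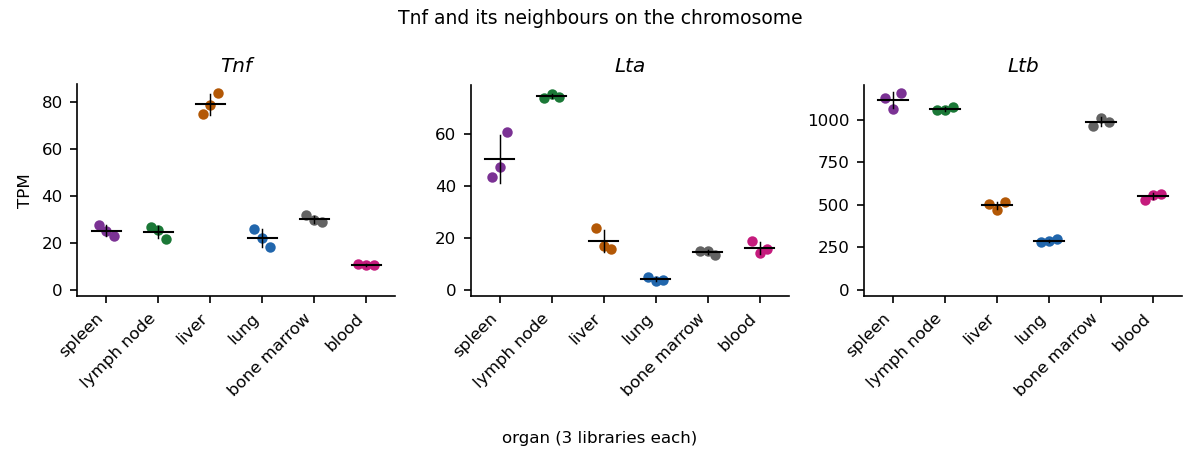
TPM of Tnf and its chromosomal neighbours Lta and Ltb in each library by organ; points are the 3 libraries, the horizontal bar is their mean and the vertical bar 1 SD to each side. Tnf is highest in liver, Lta in lymph node and Ltb in spleen and lymph node.

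Beyond the members, 16 other helper T cell cytokine genes were listed, of which 11 entered the test and all 11 were called by the F test (68% of all genes). Il3, Il9, Il22, Il24 and Il31 were listed at 0 in every library. Those with the largest F were Ltb, Areg, Tnfsf8, Il10 and Lta. Il10, the suppressive interleukin, averaged 35.7 ± 5.47 TPM in lung, 27.5 ± 2.39 in liver, 20.8 ± 2.79 in lymph node and 0.26 ± 0.17 in blood. Areg, a growth factor of tissue repair, averaged 157 ± 17.9 TPM in lung, 91.6 ± 9.78 in liver and 0.473 ± 0.0874 in blood (SD, n = 3). These 2 genes were thus highest in lung, where Ifng was 9.43 ± 5.30 TPM, and lowest in blood. Against blood, lung was higher for 6 and lower for 4 of the 11 (17.3% and 26.4% of all genes), with a median difference of 1.17 against -0.12 for all genes tested.

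Of 16 receptor genes for the member cytokines, 14 entered the test and 14 were called by the F test, against 68% of all genes. Ifngr1, the ligand-binding chain of the interferon gamma receptor, averaged 1736 ± 18.01 TPM in lung and 620 ± 26.9 in liver, 449 ± 8.23 in bone marrow and 333 ± 2.47 in blood, and 145 ± 8.95 in spleen and 132 ± 1.99 in lymph node (SD, n = 3). The organ order of the receptor thus differed from that of Ifng, which was highest in liver, although lymph node was lowest for both. Il4ra averaged 289 ± 7.16 TPM in lung, where Il4 was listed at 0, and 57.9 to 111 in the other sites. Il2rb, the beta chain of the interleukin 2 receptor, ranged from 168 ± 5.15 TPM in blood to 415 ± 6.96 in lung. Il13ra1 and Csf2rb, which myeloid cells use, were highest in blood, at 49.4 ± 2.54 and 78.1 ± 0.59 TPM, beside the myeloid genes given above. Of the 14, liver was lower than lung for 10 and higher for 0 (17.3% and 17.6% of all genes).

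Among 23 factors and receptors that mark the helper lineages, 21 entered the test and 21 were called, against 68% of all genes. The 5 with the largest F were Icos, Maf, Il1rl1, Rora and Il18r1, all lowest in blood. Icos, a costimulatory receptor, averaged 422 ± 10.7 TPM in lung and 30.7 ± 2.24 in blood. Maf, a factor that drives Il4, Il10 and Il21 transcription, averaged 132 ± 0.99 TPM in liver and 20.7 ± 0.35 in blood. Il1rl1, the interleukin 33 receptor, averaged 266 ± 20.6 TPM in lung, 156 ± 22.0 in liver, 114 ± 2.19 in bone marrow and 12.5 to 25.5 in the rest. Rora, a factor of Th17 and tissue Treg cells, averaged 152 ± 13.5 TPM in lung and 128 ± 11.3 in liver, and Il18r1, which with interleukin 12 induces Ifng, 177 ± 16.3 in lung, 172 ± 8.24 in liver and 138 ± 3.81 in bone marrow (SD, n = 3). Against spleen, liver was higher for 15 and lower for 2 of the 21 (14% and 17.3% of all genes), with a median difference of 0.83 against -0.06 for all genes. Against lung, liver was higher for 3 and lower for 10 (17.6% and 17.3% of all genes), with a median difference of -0.33.

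Further genes of this list are given here, chosen after their values were seen. Tbx21 (T-bet), which activates Ifng, averaged 23.4 ± 3.87 TPM in liver, 12.2 ± 1.48 in bone marrow and 10.6 ± 0.69 in blood, and 6.94 ± 1.04 in spleen, 5.61 ± 2.90 in lung and 2.96 ± 0.77 in lymph node (limma F test, adjusted p = 1.31e-05). Like Ifng, its mean was highest in liver, second in bone marrow and lowest in lymph node. Other Th1 genes of the list followed other orders. Stat4 had 269, 273 and 278 TPM in lung and 93.6, 94.9 and 91.7 in liver. Runx3 had 44.7, 61.4 and 65.9 TPM in lung and 34.7, 39.5 and 42.1 in liver. Cxcr3 had 141, 143 and 131 TPM in bone marrow and 125, 115 and 120 in liver. Il12rb2 had 0, 0 and 0.13 TPM in liver. Gata3, which drives the Th2 genes, averaged 189 ± 9.09 TPM in lung, where Il4 and Il13 were listed at 0, and 29.5 ± 1.45 in blood.

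Of the repressors of cytokine mRNA and transcription, 15 of 15 genes were called by the F test, against 68% of all genes. Dusp1, a phosphatase that limits MAP kinase signals, averaged 1201 ± 8.72 TPM in bone marrow and 968 ± 8.53 in liver, 812 ± 19.1 in blood and 521 ± 34.1 in lung, and 150 ± 4.28 in spleen and 116 ± 3.46 in lymph node (SD, n = 3). Zfp36, which binds the AU-rich repeats shown above, averaged 771 ± 3.76 TPM in bone marrow, 618 ± 14.8 in liver and 110 ± 1.82 in lymph node. Its relatives Zfp36l2 and Zfp36l1 were highest in bone marrow (710 ± 7.35 TPM) and in liver (436 ± 27.9), and Socs3, an inhibitor of cytokine receptor signals, in lung (592 ± 34.4). Against spleen, liver was higher for 8 and lower for 1 of the 15 (14% and 17.3% of all genes). Against lung, liver was higher for 6 and lower for 5 (17.6% and 17.3% of all genes).

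The inducers of cytokine transcription, which are factors downstream of the T cell receptor, were called for 17 of 17 genes, against 68% of all genes. Nr4a1, an early gene of T cell receptor signals, averaged 3290 ± 135 TPM in liver, 786 ± 50.8 in lung, 627 ± 17.8 in blood, 557 ± 13.2 in bone marrow, 237 ± 2.87 in lymph node and 215 ± 7.51 in spleen (SD, n = 3). Junb averaged 2490 ± 221 TPM in liver and 263 ± 4.62 in lymph node, and Jun 362 ± 21.0 in liver and 23.2 ± 1.41 in lymph node. Fos and Fosb, by contrast, were highest in bone marrow, at 2198 ± 12.9 and 362 ± 5.16 TPM, and lowest in lymph node, at 48.7 ± 0.46 and 2.82 ± 0.04. Against spleen, liver was higher for 11 and lower for 2 of the 17 (14% and 17.3% of all genes), and the median difference was 1.16 against -0.06 for all genes. Against lung, liver was higher for 7 and lower for 8 (17.6% and 17.3% of all genes), with a median difference of -0.03.

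Over the 18 libraries, Ifng and Tnf correlated at a Pearson r of 0.77 on the log2(TPM + 1) scale, Il5 and Il17a at 0.72 and Il4 and Il17a at -0.73. These are descriptions over libraries that share 6 organs, depth and the TPM scale. Among the 12927 named genes compared, the 3 most like Ifng were Tpi1 (r = 0.94), Lars2 (0.93) and Itgb1 (0.93), and those most like Tnf were CT010467.1 (0.94), Ttn (0.93) and Xkr6 (0.93). Il2 was most like Snrpe (0.90), Tbca (0.88) and Zfas1 (0.88), Il4 like Chchd1 (0.87), Usp18 (0.86) and Isoc1 (0.86), and Il17a like Cd274 (0.93), Dnaja1 (0.93) and Rsrc2 (0.92). Il13 was most like Slc7a6 (0.89), Tbl1x (0.87) and Birc6 (0.86), and Il21 like Dnah7a (0.87) and Btbd16 (0.86). For Il5 the genes were Gpihbp1 (0.91), Dlec1 (0.85) and Cxcl16 (0.85), for Il17f Cxcl9 (0.77), Tmem52b (0.75) and Cabp4 (0.74), and for Csf2 Actr3b (0.83), Sf3b6 (0.82) and Fam161b (0.80). Several of these follow an order of organs at other levels: Itgb1 averaged 669 TPM in liver, 505 in bone marrow and 194 in lymph node, and Cd274 68.2 TPM in liver, 69.1 in lung and 27.6 in spleen.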

How the data were processed

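Poly(A) RNA libraries were made with a directional kit, per the labels' protocols. The authors deposited 1 table of TPM values per library; the submitters' processing notes name STAR, RSEM and mm10, without versions, and the annotation and strand setting are not given in the sources used here. Symbols came from GENCODE M21 (55141 of 55487 IDs matched). TPM values were tested as log2(TPM + 1) with limma 3.58.1 in R 4.3.3 (1 model, 18 libraries, 6 means, trend and robust settings, no covariate). A gene entered if any organ's mean reached 1 TPM (16694 genes), and p-values were adjusted by Benjamini-Hochberg over all of them, per test, with calls under 0.05. Differences understate changes of low genes. The fit and the reading of read steps were checked on simulated data. The value of 1 read came from 13033 single-transcript genes; between 76.4% and 92.5% of their low values fell within 0.1 of a whole read. No library pair was identical. The members, lists and tests were chosen with earlier results of these data known. Named genes are all members, per member the 3 genes of highest Pearson r and at most 5 genes per list by F. Chromosomal neighbours and defining markers of other cells are named too. Tbx21, Stat4, Runx3, Cxcr3, Il12rb2, Gata3, Zbtb16 and Cd4 were added after their values were seen. Lists: other helper cytokines, member receptors, lineage factors, mRNA repressors, transcription inducers, Treg identity, T cell scaling genes, and markers of cytotoxic, gamma delta T, basophil and mast, eosinophil, myeloid, B, platelet, erythroid and natural killer T cells; B cell markers summed to 280 to 1799 TPM over the libraries and platelet markers to 1.23 to 2886. Alternatives were other pseudocounts, filters, scalings, library weights, a replicate block and leaving out libraries. No genome or protein sequence was used here. Some genes that these rules name are not reported here.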

Additional observations from a re-analysis of the deposited data

How the results depend on the processing

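The 7 members called by the F test kept their calls under every alternative in which they were tested. Leaving out 1 library at a time gave 7 to 9 members called and 51 to 67 of the pair calls, and for all genes 10719 to 11846 F calls and 76822 to 90316 pair calls. Under a filter of 5 TPM, 3 members remained in the test and all 3 were called, with 33 of 45 pair calls, since fewer genes are tested. Csf2 left the test without lung replicate 3. Without liver, an alternative chosen after seeing the data, 7 members were called. The 1 direction that turned was Tnf, lymph node minus blood, at -0.0319 after scaling to T cell genes; the cause was not tested. That scaling and quantile normalisation moved the share of higher calls among all genes, for lymph node minus blood from 56.1% to 2.43% and for liver minus bone marrow from 27.1% to 7.42% and 53.4%. The labels do not say whether the replicate numbers pair the libraries. Same-numbered libraries deviated together at correlations of -0.03 to 0.03, and 8 of 18 correlated best with their own number. These correlations cannot decide the pairing, since a small shared deviation can be lost in the spread between libraries. The replicate block gave 7 members, 57 member pair calls and 11192 genes by F, and it ended the calls of Il13 for bone marrow and lymph node and for liver and blood (adjusted p = 0.0669 for both) and of Il5 for liver and blood (0.051). Depth limits Il4 in liver and lung, Il5, Il17f, Csf2 and the other low members, whose values of 0 are not evidence of absence.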
